A study of Mus musculus with 23 samples.

Results

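The replication licensing genes are 10 genes chosen by symbol: the 6 subunits of the MCM helicase (Mcm2, Mcm3, Mcm4, Mcm5, Mcm6 and Mcm7), Mcm10, Cdc6, Cdt1 and Orc1. All 10 have a row among the 34682 rows of the comparison of Inv1DelCTCF with Inv1 distal forelimbs. Of these, 9 have a mean normalised count above 0 and 8 have an adjusted p. No member is listed in the 4 comparisons of an inversion with wild type, which cover 72 to 79 genes each, so nothing is said here of the members in wild type limbs.

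RNA was sequenced from distal forelimbs of mouse embryos at E11.5, the stage at which the limb bud is still a paddle of dividing mesenchyme under an ectodermal cover. The Inv1DelCTCF group had 2 libraries, and by its name it carries inversion 1 together with a deletion of a CTCF site. The Inv1 group had 3 libraries and carries inversion 1 alone, which puts an enhancer cluster from the Epha4 domain into a gene-dense region. Both groups therefore carry inversion 1, both are labelled with the G4 embryonic stem cell line, and the labels do not say how many clones or litters were used. CTCF marks the borders of chromatin domains, and the comparison asks what changes when the site is removed from the inverted chromosome.

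Before a cell can copy its DNA, the origin recognition complex, of which Orc1 is a subunit, binds origins and with Cdc6 and Cdt1 loads MCM rings in pairs. This step is called licensing. The ring has 6 different subunits, Mcm2 to Mcm7, and becomes the replicative helicase when Cdc45 and the GINS complex join it, with Mcm10 needed for firing. Dividing cells of the limb bud express these genes strongly, and transcription of most of them is known to be driven by E2F factors at the entry into S phase.

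The deposited values are 1 mean, 1 log2 change and 1 standard error (SE) per gene, with no value per library, so the level in each library cannot be given. Group levels below were rebuilt from the mean and the log2 change over 2 and 3 libraries. The file does not name the direction of its fold changes, which was inferred by matching Inv1 levels across the deposited tables (46 of 49 genes lay nearer the direction used). Changes are log2 of Inv1DelCTCF over Inv1, and called means an adjusted p below 0.05 as the authors' DESeq2 Wald test gave it. Nothing states that libraries came from separate litters, so the spread behind the p-values is that among these libraries, which may be technical. DESeq2 estimates that spread for each gene partly from other genes. Fewer cells of a type and less RNA per cell cannot be told apart in such bulk samples.

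Of the 6 helicase subunits, 4 fell in Inv1DelCTCF by the deposited test and 2 were not called. Across the 8 members with an adjusted p, 4 of 8 were called lower and 0 higher, where 7.89% of all 11218 genes with an adjusted p were called lower and 3.81% higher. The deposited changes followed the GC content of the transcripts (described further on), and with that trend subtracted 0 of the 8 were called, where 3.84% of 10940 genes were called, 1.79% lower and 2.05% higher. The median log2 change of the 8 members was -0.23, against -0.01 over all genes, and all 8 were negative, where 5962 of the 11218 were. The levels of Mcm2 to Mcm7 summed to 59972 rebuilt normalised counts in Inv1DelCTCF and 68149 in Inv1.

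Mcm2, which carries histones at the fork besides its place in the ring, had a rebuilt level of 9345 normalised counts in Inv1DelCTCF, against 11432 in Inv1. The authors' deposited table puts its log2 change at -0.29 (SE of 0.0854 and adjusted p of 0.0120), so that it fell by 18.3% (95% interval from the SE -27.2% to -8.20%), and with the GC trend subtracted it was not called (adjusted p of 0.109). Mcm5, which with Mcm2 forms the gate through which the ring opens around DNA, had a rebuilt level of 10790 in Inv1DelCTCF and 12820 in Inv1. The authors' deposited table puts its log2 change at -0.25 (SE of 0.0782 and adjusted p of 0.0208), so that it fell by 15.8% (-24.3% to -6.40%), and it too was not called with the GC trend subtracted (adjusted p of 0.181). Both gate subunits thus fell in the deposited test, by amounts whose intervals overlap.

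Mcm3, the neighbour of Mcm5 in the ring, had a rebuilt level of 8573 in Inv1DelCTCF and 9913 in Inv1. The authors' deposited table puts its log2 change at -0.21 (SE of 0.0719 and adjusted p of 0.0360), so that it fell by 13.5% (-21.6% to -4.64%). Mcm7, a subunit of the core with Mcm4 and Mcm6, had a rebuilt level of 11152 in Inv1DelCTCF and 13249 in Inv1. The authors' deposited table puts its log2 change at -0.25 (SE of 0.0827 and adjusted p of 0.0300), so that it fell by 15.8% (-24.8% to -5.81%). In the GRCm38 annotation Mcm7 overlaps Cops6 and Ap4m1 on the opposite strand and holds Mir25, Mir93 and Mir106b on its own. Whether the counting used strand is not given in the sources used here, so reads of these genes may be mixed with those of Mcm7. In the authors' deposited table Cops6 stood at a log2 change of 0.01 (SE of 0.0612) and Ap4m1 at 0.08 (SE of 0.0740), and neither was called. Neither Mcm3 nor Mcm7 was called in the Wald test with p adjusted over every gene that has one (adjusted p of 0.0687 for Mcm3 and 0.0574 for Mcm7) or with the GC trend subtracted (0.329 for Mcm3 and 0.306 for Mcm7). Mcm3 also lost its call when the median of all genes was subtracted (adjusted p of 0.0563).

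Mcm4, the subunit through which the kinase Cdc7 acts on the ring, had a rebuilt level of 10188 in Inv1DelCTCF and 10412 in Inv1. The authors' deposited table puts its log2 change at -0.03 (SE of 0.0608 and adjusted p of 0.789), with a 95% interval of -9.90% to 6.27%. Mcm6 had a rebuilt level of 9923 in Inv1DelCTCF and 10323 in Inv1, and a log2 change of -0.06 (SE of 0.0597 and adjusted p of 0.572; -11.4% to 4.24%) in the authors' deposited table. These intervals do not show that the levels were equal: at their SE, a log2 change below 0.17 for Mcm4 or 0.16 for Mcm6 would not have been called. The difference between the subunits that fell and those not called was not tested, since all share the same 5 libraries.

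**Figure D1:**
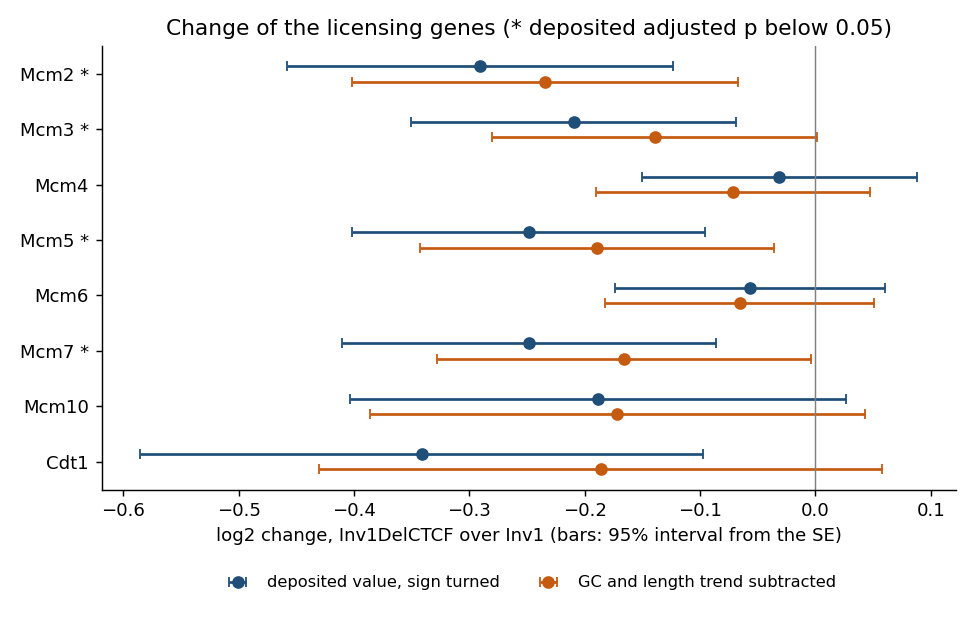
Each point is the log2 change of a licensing gene in Inv1DelCTCF over Inv1 (x axis), with bars for the 95% interval from the SE; dark blue shows the deposited value and orange the value after the trend on GC content and length was subtracted. Mcm2, Mcm3, Mcm5 and Mcm7 are the 4 called members, and with the trend subtracted none of the 8 is called.

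The factors that load and fire the ring were less abundant. Mcm10 had a rebuilt level of 2950 in Inv1DelCTCF and 3362 in Inv1, and a log2 change of -0.19 (SE of 0.110 and adjusted p of 0.262) in the authors' deposited table. Cdt1, which brings MCM rings to the origin and is destroyed in S phase, had a rebuilt level of 2298 in Inv1DelCTCF and 2912 in Inv1. It had the most negative log2 change of the 8 members in the authors' deposited table, at -0.34 (SE of 0.124), and was not called. Its adjusted p of 0.0513 lies just past the threshold, and its p of 0.00608 lies just above the largest p called in the authors' deposited table, 0.00583. The 95% interval of Cdt1 ran from -33.4% to -6.54%. With the GC trend subtracted neither Mcm10 (adjusted p of 0.438) nor Cdt1 (adjusted p of 0.484) was called.

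Cdc6 and Orc1 could not be assessed. Cdc6, the ATPase that joins Orc1 at the origin, had a mean of only 2.42 normalised counts in the authors' deposited table, with a log2 change of 0.59 (SE of 1.57) and no adjusted p. A further row written cdc6 had a mean of 20.1 in the authors' deposited table. Orc1 was listed at 0, as was a row under its older symbol Orc1l, and for a gene that dividing cells use this is no measure of its expression. Counting rules for overlapping gene models are not given in the sources used here, and the part that the doubled rows play in these low values was not tested. Ticrr, a factor of helicase activation, and its older symbol 5730590G19Rik likewise had means of 0 and 0.341 in the authors' deposited table. Other listed genes with doubled rows had high means there: Orc3 stood at 2611 beside Orc3l at 30.3, and E2f3 at 3383 beside a row written E2F3 at 0.

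The ring is built from equal numbers of its subunits, so an even split of the message would give each subunit 16.7% of the summed count per length. Per kilobase of the longest transcript, Mcm7 held 22.4% of the summed level of the 6, Mcm5 18.98%, Mcm2 16.2%, Mcm4 15.4%, Mcm3 14.6% and Mcm6 12.5%. Per kilobase of coding sequence the shares were 21.2% for Mcm7, 20.1% for Mcm5, 15.2% for Mcm6, 14.7% for Mcm4, 14.4% for Mcm2 and 14.2% for Mcm3. Per kilobase of the median transcript length they were 23.9% for Mcm2, 23.1% for Mcm4, 22.5% for Mcm7, 15.3% for Mcm3, 8.54% for Mcm6 and 6.78% for Mcm5. Mcm7 held more than an even share by each of these lengths. Mcm5 was next to highest by the longest transcript and by coding sequence, and the order of the other subunits changed between them. The median transcript length is shorter than the coding sequence for each subunit but Mcm5 (653 against 2712 bases for Mcm2, 2604 against 2202 for Mcm5). Shares by that length, where Mcm5 came lowest, are therefore a poor guide to level. Per kilobase of the longest transcript Mcm10 had 657 and Cdt1 989 normalised counts per kilobase, against 2334 to 4190 for the 6 subunits. The 6 subunits lay above the 95th percentile of all genes with an adjusted p by mean count (95.4 to 96.9, not per length), with Mcm10 at 77.3 and Cdt1 at 72.8.

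**Figure D2:**
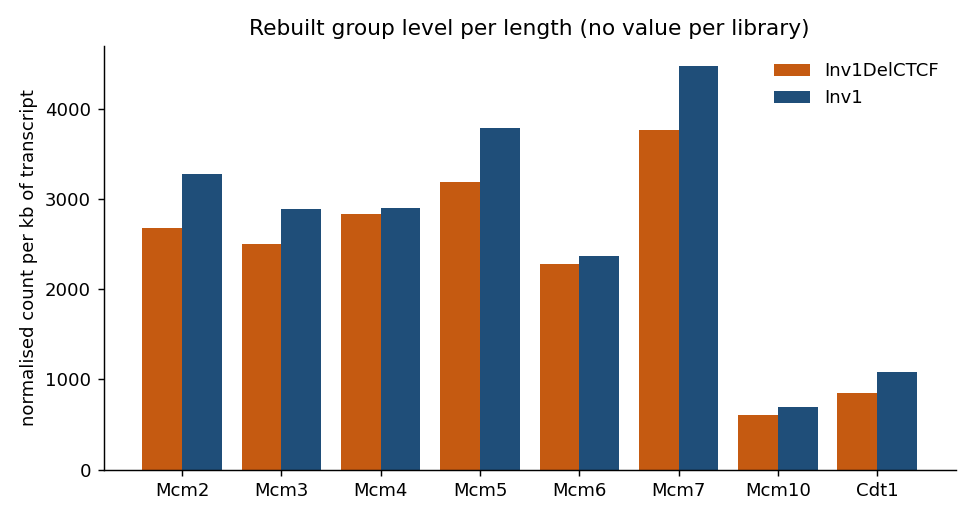
Bars give the group level rebuilt from the authors' deposited table, in normalised counts per kilobase of the longest transcript, for Inv1DelCTCF (orange, left) and Inv1 (dark blue, right). There is no value per library and so no error bar; the 6 subunits stand well above Mcm10 and Cdt1, and among the 6 the bars of Mcm4 and Mcm6 differ least between the groups.

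The spread between libraries can be approached only through the SE, which DESeq2 estimates partly from other genes. The SE in the authors' deposited table implies a coefficient of variation between libraries beyond counting error, a value of the model and not a measured spread. Among the members it ran from 4.42% for Mcm6 to 9.25% for Cdt1. The median was 6.04% over the 8 members and 6.75% over all genes with an adjusted p. With 2 and 3 libraries at that spread, the smallest log2 change that would have been called was 0.24 for Mcm2, 0.20 for Mcm3, 0.22 for Mcm5 and 0.23 for Mcm7, not far under the changes measured.

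The change of a gene in this comparison followed the GC content of its transcript. Over the 10940 genes with an adjusted p and a GC value, the Spearman correlation of log2 change and GC content was -0.518. In the decile of genes with the lowest GC content the median log2 change was 0.12 and 0.640% were called lower, while in the highest decile it was -0.19 and 24.4% were called lower. The genes called lower had a median GC content of 55.6% and those called higher one of 43.6%.

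The changes of the members also tended to be lower at higher GC content, but all 8 lay below the medians of their deciles. Mcm4 at 45.5% GC and Mcm6 at 47.3% were the members nearest 0, Mcm10 stood at 48.7%, the 4 called members at 51.7% (Mcm2), 51.9% (Mcm5), 52.6% (Mcm3) and 53.4% (Mcm7), and Cdt1 at 57.8%. The Spearman correlation of log2 change and GC content over the 8 members was -0.786, a description of genes that share the same 5 libraries. Mcm2, Mcm3, Mcm5 and Mcm7 fell in the same decile of genes by GC content, in which 11.1% of genes were called lower and the median log2 change was -0.07. With the trend on GC content subtracted and the p adjusted again, none of the 4 was called.

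All 8 members stayed negative after that subtraction. The remaining log2 change was -0.23 for Mcm2, -0.18 for Mcm5, -0.16 for Mcm7 and -0.14 for Mcm3. It was -0.06 for both Mcm4 and Mcm6, -0.17 for Mcm10 and -0.18 for Cdt1, and the median of the 8 was -0.17, against 0.01 over all genes. Mcm4 and Mcm6, whose transcripts have less GC, were the 2 members that became more negative. With length in the trend as well, again 0 of 8 were called, where 3.66% of all genes were called, 1.65% lower and 2.01% higher, and the median was -0.17. The part that GC content plays in the deposited changes was not tested.

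**Figure D3:**
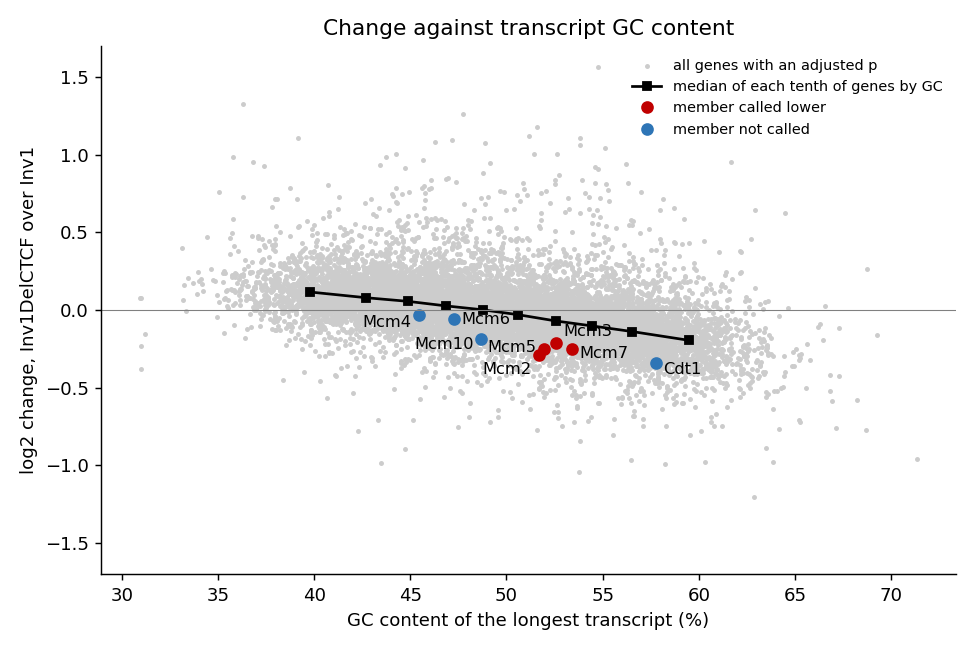
Each grey point is a gene with an adjusted p, placed by the GC content of its longest transcript (x axis, %) and its log2 change in Inv1DelCTCF over Inv1 (y axis); black squares are medians of each decile of genes by GC. The 4 called members (red) lie between 51.7% and 53.4% GC, and all 8 members lie below the line of medians.

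The rest of the replication machinery was described with 8 lists of 120 genes, 113 of them with an adjusted p. Together 12 of 113 were called lower and 3 higher, near the 7.89% and 3.81% of all genes, and their median log2 change was -0.03. With the GC trend subtracted 3 were called lower and 1 higher, where 1.79% and 2.05% of all genes were. The counts of each list stand against those same shares. Of the 11 other licensing genes with an adjusted p, 0 were called lower and 1 higher, 3 were negative and 8 positive, and the median was 0.04. The gene called higher was Orc4, a subunit of the origin recognition complex, with a log2 change of 0.31 (SE of 0.0706 and adjusted p of 7.32e-04) in the authors' deposited table, at a GC content of 36.8%. After the GC trend was subtracted its log2 change was 0.18 (adjusted p = 0.135). Kat7, a histone acetyltransferase that works with Cdt1 and the most abundant gene of that list, had a log2 change of -0.07 (SE of 0.0677 and not called) in the authors' deposited table.

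Among the genes that time or limit licensing, 1 of 14 was called, again higher. This was Cdc7, the catalytic subunit of the kinase that phosphorylates MCM subunits to start replication. Its rebuilt level was 3303 in Inv1DelCTCF and 2586 in Inv1, and the authors' deposited table puts its log2 change at 0.35 (SE of 0.0723 and adjusted p of 1.18e-04). It kept its call with the GC trend subtracted (log2 change 0.30, adjusted p = 0.00316), the 1 gene of the 8 lists called higher there. The most abundant gene of the list, Ddb1, part of a ubiquitin ligase that removes Cdt1, had a log2 change of -0.05 (SE of 0.0480 and not called) in the authors' deposited table. Of the helicase activators, 1 of 10 was called lower, Gins2, a subunit of the GINS complex, at -0.30 (SE of 0.0921 and adjusted p of 0.0164) in the authors' deposited table, and the list's median was 0.02. Gins2 was not called with the GC trend subtracted (adjusted p of 0.191). Topbp1, a scaffold for origin firing, had a log2 change of 0.02 (SE of 0.0594 and not called) in the authors' deposited table.

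At the replication fork 4 of 28 genes were called lower and 1 higher, with a median of -0.07. Pold1, the catalytic subunit of DNA polymerase delta, fell by 0.44 on the log2 scale (SE of 0.111 and adjusted p of 0.00253) in the authors' deposited table, at a GC content of 61.0%. Chaf1b, a histone chaperone of new chromatin, fell by 0.36 (SE of 0.101 and adjusted p of 0.00875) and Rfc2, a clamp loader subunit, by 0.20 (SE of 0.0660 and adjusted p of 0.0328) on the log2 scale in the authors' deposited table. Prim1, a primase subunit with 44.0% GC, rose by 0.22 (SE of 0.0742 and adjusted p of 0.0352) on the same scale in the authors' deposited table. Pcna, the sliding clamp and the most abundant gene of the list, had a log2 change of -0.04 (SE of 0.0846 and adjusted p of 0.808) in the authors' deposited table. With the GC trend subtracted, Chaf1b alone of these kept a call (-0.33, adjusted p = 0.0331).

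Nucleotide supply held 1 call in 10 genes, the thymidine kinase gene Tk1 at -0.23 (SE of 0.0760 and adjusted p of 0.0298), with a list median of -0.10 and Rrm1, a ribonucleotide reductase subunit, at -0.10 (SE of 0.0773 and not called) in the authors' deposited table. Of 13 E2F and pocket protein genes, E2f4, a mostly repressive E2F, at -0.33 (SE of 0.0832 and adjusted p of 0.00227) and E2f3, an activating E2F, at -0.20 (SE of 0.0672 and adjusted p of 0.0330) were called lower in the authors' deposited table. With the GC trend subtracted none of these was called, at an adjusted p of 0.232 for Tk1, 0.165 for E2f4 and 0.133 for E2f3. The median of the E2F and pocket protein list was -0.01, and Tfdp1, the dimer partner of the E2F proteins, was at -0.05 (SE of 0.0687 and not called) in the authors' deposited table.

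Of 17 genes of mitosis with an adjusted p, 1 was called lower, the kinase gene Plk1 at -0.23 (SE of 0.0823 and adjusted p of 0.0492) in the authors' deposited table, and the median was -0.01. Plk1 lost its call with the GC trend subtracted (adjusted p of 0.598). Top2a, the topoisomerase of condensing chromosomes, had a log2 change of 0.04 (SE of 0.0569 and not called) in the authors' deposited table. In a list of cell cycle brakes and G1 cyclins that also holds Cdk4, Cdk6, Myc and Mycn, 3 of 10 were called lower, with a median of -0.15. None of its brakes (Cdkn1a, Cdkn1b and Cdkn1c) or cyclins (Ccnd1, Ccnd2 and Ccnd3) with an adjusted p was called. Mycn, a transcription factor that promotes growth of limb mesenchyme, fell by 0.60 on the log2 scale (SE of 0.119 and adjusted p of 7.15e-05) in the authors' deposited table. The kinase genes of G1 fell too, Cdk6 by 0.71 (SE of 0.190 and adjusted p of 0.00543) and Cdk4 by 0.24 (SE of 0.0583 and adjusted p of 0.00186) on the log2 scale in the authors' deposited table. Ccnd2, the most abundant gene of the list, was at -0.16 (SE of 0.0584 and adjusted p of 0.0602) in the authors' deposited table. Mycn (-0.49, adjusted p = 0.00353) and Cdk6 (-0.74, adjusted p = 0.00719) kept their calls with the GC trend subtracted, and Cdk4 did not (adjusted p of 0.130).

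**Figure D4:**
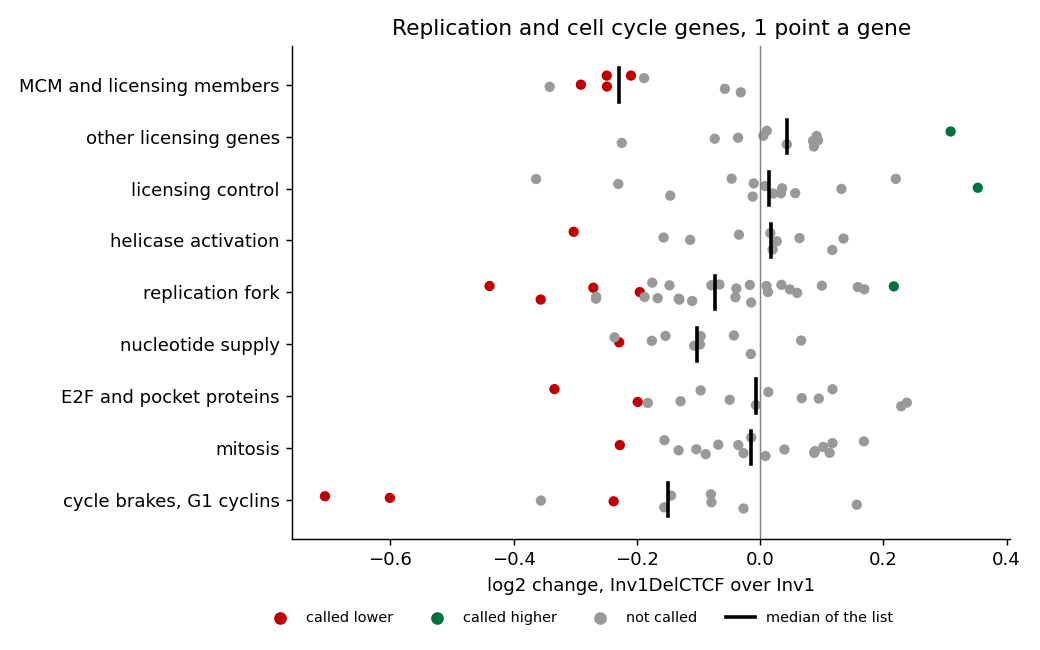
Each point is a gene with an adjusted p, placed by its log2 change in Inv1DelCTCF over Inv1 (x axis), in rows for the licensing members and 8 lists of replication and cell cycle genes; red is called lower, green called higher, grey not called, and black bars are list medians. The median of the members is -0.23, below the 8 list medians, which run from -0.15 to 0.04. The row of cycle brakes and G1 cyclins also holds Cdk4, Cdk6, Myc and Mycn.

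The promoters of most members held E2F-type sequences. The members were chosen by symbol, but most are known to be driven by E2F factors. The share of promoters with a match therefore describes known targets and is not a result of these libraries. RefSeq's promoter table (GRCm38.p6, 250 bases before to 50 after each start) has 10 promoters of 9 members, and Mcm4 has no entry. The sequences TTTCCCGC, TTTGGCGC and TTTCGCGC, forms of the site that E2F proteins bind, were searched on both strands. They occurred in the promoters of 7 of 9 members (77.8%), namely Mcm3, Mcm5, Mcm6, Mcm7, Cdc6, Cdt1 and Orc1, against 4.31% of 8371 genes that have both a promoter entry and an adjusted p, and 2.12% of all 27025 genes in the promoter table. Cdc6 and Orc1 have no adjusted p, so the 9 members match the second of these sets and not the first. Mcm2 and Mcm10 held none of these letters in the window. TTTGAA, the CHR sequence known from promoters of mitotic genes, occurred in the promoter of 1 of 9 members, Mcm2, against 13.8% of the genes with an adjusted p.

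Matches were thus present both in members that fell and in Mcm6, which was not called. The last 200 bases before the start are shown for 3 members that fell and for Mcm6, from RefSeq GRCm38.p6, 5′ to 3′ on the gene's strand, with E2F-type matches in capitals. In Mcm5 a match on the gene's strand at -153 overlaps another on the other strand at -149, counted from the start, and Mcm6 has the same arrangement at -110 and -106 with a further match at -47. Mcm7 has a match on the other strand at -165. The stretch of first bases after the starts used for Mcm5 and Mcm6 was not found whole and unbroken in any GENCODE M21 transcript of these genes, unlike those of the other promoters. Positions in Mcm5 and Mcm6 are counted from the RefSeq start, and how near a GENCODE start lies was not measured. The Mcm2 stretch (chr6:88898781-88898980, minus strand), the Mcm5 stretch (chr8:75109309-75109508, plus strand), the Mcm6 stretch (chr1:128359706-128359905, minus strand) and the Mcm7 stretch (chr5:138171884-138172083, minus strand) read as follows.
Mcm2: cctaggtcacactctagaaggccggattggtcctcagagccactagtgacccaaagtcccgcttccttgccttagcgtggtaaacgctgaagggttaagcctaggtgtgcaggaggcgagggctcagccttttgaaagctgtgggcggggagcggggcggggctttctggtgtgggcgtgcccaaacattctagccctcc
Mcm5: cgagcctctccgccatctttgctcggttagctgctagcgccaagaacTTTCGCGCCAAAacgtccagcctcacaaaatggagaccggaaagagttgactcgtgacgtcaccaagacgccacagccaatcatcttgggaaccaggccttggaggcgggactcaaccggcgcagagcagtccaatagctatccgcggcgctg
Mcm6: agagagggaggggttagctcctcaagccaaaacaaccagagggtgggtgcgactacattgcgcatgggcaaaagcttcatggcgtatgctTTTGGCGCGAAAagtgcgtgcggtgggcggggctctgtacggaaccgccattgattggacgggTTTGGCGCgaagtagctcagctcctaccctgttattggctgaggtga
Mcm7: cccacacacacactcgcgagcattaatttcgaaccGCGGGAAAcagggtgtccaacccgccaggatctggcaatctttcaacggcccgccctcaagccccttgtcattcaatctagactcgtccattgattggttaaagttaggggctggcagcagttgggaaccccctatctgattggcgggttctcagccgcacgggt

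**Figure D5:**
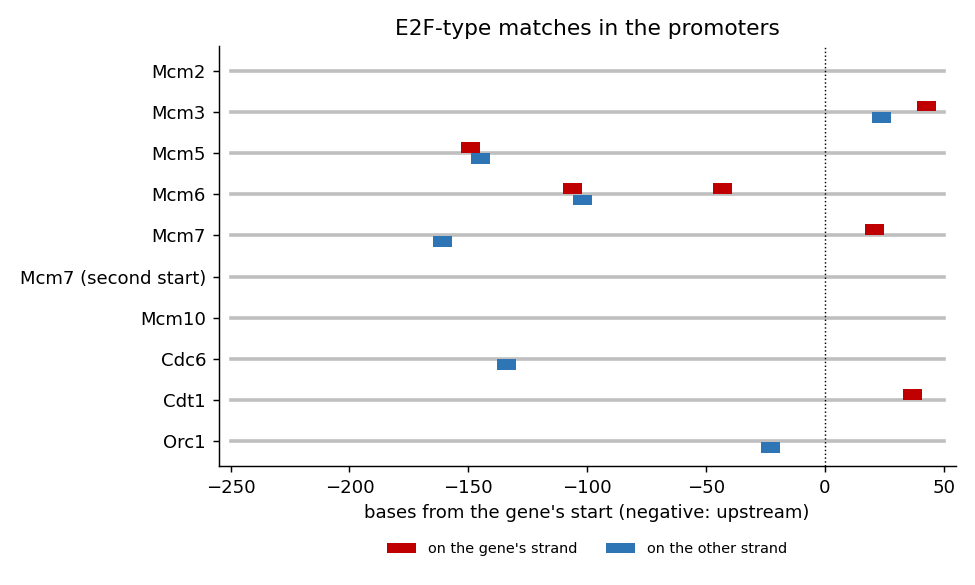
Grey lines are the promoters of 9 members, Mcm7 with its 2 starts, from 250 bases before to 50 after the start (x axis, dotted line at the start), and boxes are E2F-type matches on the gene's strand (red) or the other strand (blue). Mcm5 and Mcm6 each have an overlapping match on both strands, and Mcm2, Mcm10 and the second start of Mcm7 have none. The stretch of first bases after the starts used for Mcm5 and Mcm6 was not found whole and unbroken in any GENCODE M21 transcript of these genes.

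Markers of the labelled tissue were present, and the ectoderm markers were all negative in the deposited values, as the 8 members were. The 12 limb mesenchyme markers all had an adjusted p, their rebuilt levels summed to 106601 in Inv1DelCTCF and 106660 in Inv1, 2 were called lower and 0 higher, and Prrx1 had a mean of 25893 in the authors' deposited table. Of 11 ectoderm markers 5 were called lower and 0 higher, none had a mean under 10, and their levels summed to 12235 in Inv1DelCTCF and 14730 in Inv1. Over all genes with an adjusted p, 7.89% were called lower and 3.81% higher. The ectoderm marker Fgf8 (log2 change -1.20, SE of 0.609) and the mesenchyme marker Msx1 (-0.99, SE of 0.421), named after their values were seen, were not called. Krt5, a keratin of basal epidermis, fell by 0.30 on the log2 scale (SE of 0.0760 and adjusted p of 0.00231) in the authors' deposited table, at a GC content of 56.9%. With the GC trend subtracted 1 ectoderm marker was called lower, where 1.79% of all genes were, and Krt14 became positive (log2 change 0.03). The part of these markers in the change of the members was not tested.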

How the data were processed

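Distal forelimb RNA was purified on RNeasy columns and made into Illumina libraries, per the labels' protocols. Per the submitters' processing notes, STAR, DESeq2 and build mm9 were used. Versions, annotation and counting rules are not given in the sources used here. For each gene the authors deposited a mean of normalised counts (a signal over all libraries of their fit, 5 for Inv1DelCTCF with Inv1), a log2 fold change and its SE, the Wald score and both raw and adjusted p-values, per the file headers. Depth per library is unknown: the means of the Inv1DelCTCF table sum to 3.02e+07.

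The headers do not name the numerator. Inv1 levels rebuilt from the tables against wild type matched that table with a median absolute residual of 0.0124 (log2, 49 genes with a mean of at least 300) if positive means higher in Inv1 there, and 0.107 with that sign reversed. Of the 49 genes, 46 lay nearer that reading and 2 nearer the reversed sign. The residuals of 0.0124 and 0.107 take positive in the comparisons with wild type as higher in the mutant, a sign inferred in the same step. With positive there as higher in wild type, the residual was 0.132 or 0.117. The sign of the Inv1DelCTCF changes was turned, so positive is higher in Inv1DelCTCF.

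Calls use the deposited adjusted p below 0.05. The longest transcript of each gene in GENCODE M21 (GRCm38) gave GC content and length, for 97.5% of genes with an adjusted p and 97.3% of called genes. The trend has terms up to the cube and was fitted by weighted least squares, and the adjustment was repeated by Benjamini-Hochberg. Coordinates are GRCm38.p6, not mm9, and only accompany RefSeq sequence. These steps were tested on simulated data. The changes planted for the trend subtraction were larger than those of the members, so calls at the members' size were not simulated. The members and lists were chosen with earlier results of these data known. Named genes are all members, up to 4 called genes of each of the 8 pathway lists by adjusted p and the gene of the largest mean in each list. Some further genes, such as Hba-x, Myog, Acan and Matn4, were named after their values were seen. Alternatives covered the threshold, the genes adjusted over, centring, trends and transcript lengths. Protein sequences and the 3 stem cell libraries were not used here. Tools were SciPy 1.17.1, matplotlib 3.10.9, numpy 2.4.6 and pandas 2.3.3 under Python 3.11.15.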

Additional observations from a re-analysis of the deposited data

How the results depend on the processing

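The count of 4 members called lower became 0 with the GC trend or the GC and length trend subtracted and 0 at an adjusted p below 0.01. It was 2 (Mcm2 and Mcm5) with adjustment over every gene with a p, 3 with the median of all genes subtracted (Mcm3 at an adjusted p of 0.0563) and 5 below 0.1, with Cdt1. It was 4 with adjustment over genes with a mean of at least 10 or at least 100. The 12 pathway genes called lower became 3 with either trend subtracted, 6 below 0.01, 20 below 0.1 and 7 with adjustment over every gene, and the 3 called higher became 1 with either trend. Of all genes, 7.89% were called lower in the deposited test, 1.79% with the GC trend subtracted and 1.65% with the GC and length trend. No share of all genes was taken for the other settings, so their counts cannot be set against one. The trends leave fewer calls across all genes, and why the members lose theirs was not tested. Only 3 settings alter the log2 changes themselves: the 8 members were negative in each, with a median of -0.21 with the median of all genes subtracted and -0.17 with either trend. The sign of the table was the same with genes of a mean of at least 100 or at least 20. The shares per length moved most with the median transcript length, where Mcm5 held 6.78% and Mcm2 23.9%. That length is shorter than the coding sequence for each subunit but Mcm5.

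No paired analysis was possible because the files hold no value per library, so leaving out a replicate was not run either. That 2 libraries stand against 3, and that the sign rests on a rebuilt level, limits every value here.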

Other observations

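Genes whose start lies beside that of a member were not called. Prkdc, a DNA repair kinase gene whose start lies 466 bases from that of Mcm4 on the opposite strand, had a log2 change of 0.16 (SE of 0.1001 and adjusted p of 0.293) in the authors' deposited table. Ap4m1, whose start lies 420 bases from that of Mcm7, had one of 0.08 (SE of 0.0740 and adjusted p of 0.494), and Prpf38a, 87 bases from Orc1, one of 0.09 (SE of 0.0768 and adjusted p of 0.498) in the authors' deposited table. Prpf38a had a mean of 2533 in the authors' deposited table, beside Orc1 listed at 0. The differences between a member and its neighbour were not tested.

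Of the remaining marker lists, 1 of 8 endothelial and 2 of 6 erythroid genes were called lower, where 7.89% of all genes were. None of 4 macrophage, 5 muscle precursor, 3 Schwann precursor and nerve or 6 early cartilage genes with an adjusted p was called in the authors' DESeq2 test. This does not show that they were unchanged. Their median log2 changes were 0.25, 0.06, 0.29 and 0.24 in that order, against -0.01 over all genes. Of the cartilage genes 1 was negative and 5 positive, with Acan at 1.56 (SE of 0.683) and Matn4 at 1.12 (SE of 0.498). With the GC trend subtracted, 1 macrophage gene was called higher (Csf1r, named after its value was seen, log2 change 0.53, adjusted p of 0.0386), 1 erythroid gene lower, and none of the endothelial, muscle precursor, Schwann precursor and nerve or early cartilage genes. Summed rebuilt levels in Inv1DelCTCF and Inv1 were 8227 and 9136 for endothelium (Cdh5 highest), 84276 and 89662 for erythroid genes (Hbb-y highest), and 1716 and 1414 for macrophages (Mrc1 highest). They were 4133 and 3507 for muscle precursors (Met highest), 1828 and 1558 for Schwann precursors and nerve (Erbb3 highest) and 33868 and 29212 for early cartilage (Col2a1 highest). These sums include genes without an adjusted p and are weighted towards the genes with the highest counts. Within the erythroid sum, Hbb-y stood at 48034 in Inv1DelCTCF and 43077 in Inv1, and Hba-x at 22867 and 31048. Within the muscle precursor sum, Myog stood at 1518 and 1033, and Met at 1366 and 1315. Among the defining markers, Hba-a1, Hba-a2, Hbb-b1, Elavl3 and Foxd3 had means under 10.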
